A study of Mus musculus with 16 samples.

Results

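The response of wild-type mouse macrophages to interleukin-4 (IL-4) was measured by RNA sequencing. It rests on the 4 wild-type libraries with IL-4 and the 4 untreated wild-type libraries, 8 of the 16 libraries in the series, compared over every gene whose value was at least 1 in at least 4 of these 8 libraries. Of 10920 genes in the files, 9657 met this rule and 1263 did not. Both groups were bone marrow cells of 8-week-old C57BL/6 mice, cultured with the macrophage growth factor M-CSF (20 ng/ml) over 7 days. The first group then received IL-4 at 20 ng/ml for 24 hours, and the second was left untreated. The other 8 libraries come from mice that carry Sirt3 K223R, a lysine to arginine change in the mitochondrial deacetylase Sirt3, with 4 libraries with IL-4 and 4 untreated, and they enter here only where the 2 responses are compared. Whether a group's replicates are different animals is not recorded, so p-values measure only the spread among these libraries, which may be technical.

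IL-4 is a cytokine of T helper cells, eosinophils and other cells of allergic and antiparasite immunity. It binds a receptor built around the chain Il4ra, paired in macrophages with the common gamma chain Il2rg or with Il13ra1. Janus kinases on the receptor then phosphorylate the transcription factor STAT6, which enters the nucleus and binds sites of the form TTC, a spacer of a few bases, and GAA. The resulting state, called alternative or M2 activation, is known for arginase, chitinase-like and resistin-like proteins, lectins, cell fusion and changed metabolism. STAT6 also lowers many inflammatory genes in macrophages.

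The labelled cell type was checked against its markers. The macrophage genes Adgre1 (F4/80), Csf1r, the M-CSF receptor, and the lysosomal protein Cd68 were high in all 8 libraries. Adgre1 had 404, 494, 427 and 468 FPKM with IL-4, against 386, 460.0, 439.9 and 449 FPKM in untreated cells. Csf1r averaged 558 ± 41.4 FPKM with IL-4 and 508 ± 47.3 FPKM untreated, and Cd68 averaged 1373 ± 51.8 FPKM with IL-4 and 1276 ± 46.2 FPKM untreated (SD, n = 4 each, as for all means below). The groups overlapped for all 3, and limma called none of them (adjusted p = 0.722 for Adgre1, 0.25 for Csf1r and 0.153 for Cd68). With median-ratio scaling Cd68 was called higher (log2 change 0.16, adjusted p = 0.0454). Some other macrophage markers did change. Of 14 tested identifiers, 4 rose (28.6%) and 3 fell (21.4%), against 10.4% and 14.3% over all tested genes. The falls were those of Fcgr1, Mertk and Lyz2, and with quantile normalization 2 rose. The summed level of the list lay between 15355 and 17004 FPKM in IL-4 libraries and between 18467 and 20419 FPKM in untreated libraries, without overlap. Lyz2, lysozyme, made up the greater part of it and averaged 8984 ± 424 FPKM with IL-4 and 13001 ± 696 FPKM untreated (log2 change -0.53, adjusted p = 0.00039). Of the 12 listed neutrophil markers, 6 were tested, and their summed level lay between 53.5 and 105 FPKM in IL-4 libraries and between 78.8 and 165 FPKM in untreated libraries. The log2 change was negative for all 6, from -1.22 to -0.235. Camp, a granule peptide, and Ngp were the 2 called lower (log2 change -1.22 and -0.99). The count of 2 became 1 without IL-4 replicate 1, IL-4 replicate 2 or untreated replicate 4. It became 4 without untreated replicate 1 or with the spread shared over all 16 libraries, and 6 with a replicate block. The call for Ngp was lost without IL-4 replicate 1 or 2 or untreated replicate 4 (adjusted p up to 0.0637). The part of such cells in the results below was not tested, and in bulk RNA fewer cells of a type and less RNA per cell cannot be told apart. Few markers of other lineages were tested, and 0 of mast or erythroid cells. Of 2 monocyte markers F10 rose and Ccr2 was not called, and of 2 dendritic cell markers Batf3 rose and Bst2 was not called. The T cell marker Cd4, the stromal marker Acta2 and Ccr3, 1 of 2 eosinophil markers, were called lower, and the endothelial marker Pecam1 was called higher (log2 change -0.63, -0.87, -0.42 and 0.92). The other eosinophil marker, Siglecf, the B cell marker Cd79b and the platelet marker Pf4 were not called.

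The first principal component of the 8 libraries separated the groups. It held 58.1% of the variance, with the IL-4 libraries between 18.2 and 20.4 and the untreated libraries between -19.9 and -18.7. On the second, with 11.3%, replicate 1 stood apart in both groups, at 14.5 with IL-4 and 13.8 untreated, where the other 6 libraries lay between -9.75 and -2.02. Levels are given as FPKM, the reads of a gene per length and library size, and changes as IL-4 minus untreated on the log2(FPKM + 1) scale, which understates changes of low genes. The sequencing depth is unknown.

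In all, 2386 of the 9657 genes (24.7%) were called by limma at a Benjamini-Hochberg adjusted p under 0.05. Of these, 1001 (10.4%) rose and 1385 (14.3%) fell with IL-4. These shares are the background against which each gene-list count below is to be read. Most changes were small, with a median log2 change of 0.40 among the genes that rose and -0.36 among those that fell. By at least 2-fold, 164 genes (1.7%) rose and 77 (0.797%) fell, and by at least 4-fold 36 rose and 3 fell. The IL-4 libraries lay wholly above the untreated libraries for 1104 genes (11.4%) and wholly below for 1605 (16.6%). The split between directions depended on scaling. With median-ratio scaling 1275 genes rose and 1068 fell, so that 54.4% of calls were rises, against 42.0% on the values as deposited. That scaling moved the median change over all tested genes to 0.00, from -0.04.

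**Figure D1:**
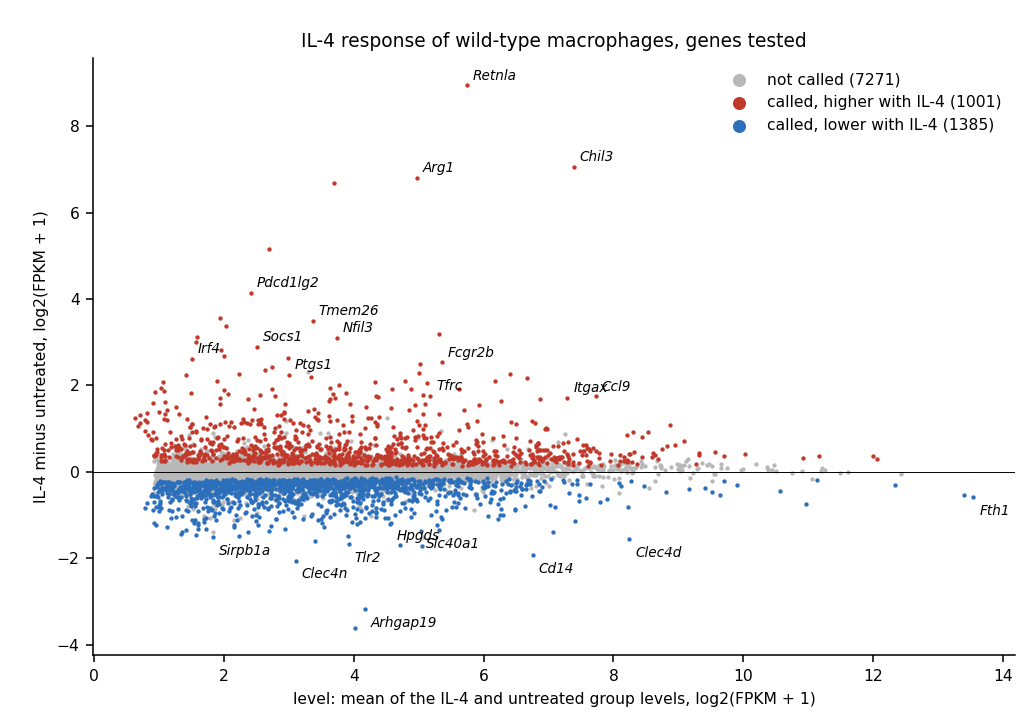
Change with IL-4 against level for the 9657 tested genes of wild-type macrophages. Each point is a gene. The x axis is the mean of the IL-4 and untreated group levels and the y axis is IL-4 minus untreated, both on the log2(FPKM + 1) scale. Red points are the 1001 genes that rose, blue points the 1385 that fell, and grey points were not called. The rises reach 8.94 (Retnla), and the falls of named genes reach -3.18 (Arhgap19).

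The genes with the largest rises included secreted effectors, signalling inhibitors, transcription factors and enzymes. Nfil3, a basic leucine zipper repressor, had 38.4, 43.3, 36.7 and 35.0 FPKM with IL-4, against 2.92, 3.48, 4.01 and 3.86 FPKM in untreated cells. Lipn, a lipase, had 10.9, 10.0, 8.89 and 7.52 FPKM with IL-4, against 0.769, 0.299, 0.427 and 0.331 FPKM in untreated cells. Gda, the enzyme that converts guanine to xanthine, had 18.8, 22.7, 16.1 and 17.6 FPKM with IL-4, against 2.71, 2.47, 1.63 and 1.90 FPKM in untreated cells. The groups did not overlap for any of the 3, and the log2 changes were 3.11 (SE 0.09, adjusted p = 1.3e-07) for Nfil3, 2.83 (SE 0.13, adjusted p = 1.98e-06) for Lipn and 2.64 (SE 0.13, adjusted p = 3.4e-06) for Gda. Gatm, which makes the creatine precursor guanidinoacetate from arginine and glycine, averaged 75.5 ± 9.76 FPKM with IL-4 and 12.6 ± 2.14 FPKM untreated. Coagulation factor F10 averaged 68.9 ± 10.5 FPKM with IL-4 and 13.8 ± 5.13 FPKM untreated, and the membrane protein Ms4a4a 185 ± 47.6 FPKM with IL-4 and 37.6 ± 11.5 FPKM untreated. These 3 also lay wholly above the untreated libraries (log2 change 2.49, 2.28 and 2.28, adjusted p = 4.56e-06, 0.000105 and 0.000193). Of 19 tested effectors of alternative activation, 19 rose and 0 fell, with a median change of 2.17, where the median over all tested genes was -0.04. This list was drawn up with the genes' behaviour in such cells known, so its direction is no independent evidence.

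Promoters of the leading genes were searched for the STAT6-type motif TTCNNNNGAA, since STAT6 is the factor that IL-4 activates. RefSeq promoter windows of 300 bases (250 before to 50 after the start site, GRCm38.p6) were at hand for 21 of the 25 genes with the largest rises, and 5 of them held the motif. They are shown on the strand of the gene, with the motif in capitals and positions counted from the start site.

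Retnla, chr16:48842359-48842658, plus strand, motif at -145: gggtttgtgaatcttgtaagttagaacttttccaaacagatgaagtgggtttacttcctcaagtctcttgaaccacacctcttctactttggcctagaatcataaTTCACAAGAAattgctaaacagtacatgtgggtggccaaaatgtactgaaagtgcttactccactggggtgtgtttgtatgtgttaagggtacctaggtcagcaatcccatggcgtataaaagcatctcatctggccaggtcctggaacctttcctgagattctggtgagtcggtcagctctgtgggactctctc
Pdcd1lg2, chr19:29410669-29410968, plus strand, motif at -82: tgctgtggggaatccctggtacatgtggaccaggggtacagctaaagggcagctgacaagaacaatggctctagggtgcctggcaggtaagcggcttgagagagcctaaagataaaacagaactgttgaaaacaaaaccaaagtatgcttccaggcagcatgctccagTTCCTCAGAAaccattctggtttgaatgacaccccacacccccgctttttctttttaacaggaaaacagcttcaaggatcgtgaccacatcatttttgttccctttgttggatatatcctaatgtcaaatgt
Tmem26, chr10:68723496-68723795, plus strand, motifs at -227 and -41: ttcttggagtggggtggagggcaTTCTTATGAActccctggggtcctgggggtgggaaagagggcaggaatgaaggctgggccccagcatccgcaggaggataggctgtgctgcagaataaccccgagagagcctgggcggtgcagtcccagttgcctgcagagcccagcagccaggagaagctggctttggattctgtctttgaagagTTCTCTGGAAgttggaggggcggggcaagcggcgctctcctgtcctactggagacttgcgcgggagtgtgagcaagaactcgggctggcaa
Apol7c, chr15:77533266-77533565, minus strand, motif at -72: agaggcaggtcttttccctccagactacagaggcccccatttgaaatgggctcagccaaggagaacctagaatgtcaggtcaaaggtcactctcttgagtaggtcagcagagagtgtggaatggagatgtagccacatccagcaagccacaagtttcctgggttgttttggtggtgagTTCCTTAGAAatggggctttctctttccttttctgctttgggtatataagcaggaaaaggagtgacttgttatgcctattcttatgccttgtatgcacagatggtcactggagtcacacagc
Plekhf1, chr7:38227945-38228244, minus strand, motif at -119: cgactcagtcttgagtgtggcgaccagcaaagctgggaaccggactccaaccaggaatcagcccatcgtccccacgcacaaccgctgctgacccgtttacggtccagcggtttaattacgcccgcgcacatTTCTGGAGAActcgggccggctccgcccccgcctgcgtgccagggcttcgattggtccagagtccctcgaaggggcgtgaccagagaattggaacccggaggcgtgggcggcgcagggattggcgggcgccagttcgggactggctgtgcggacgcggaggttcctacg

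The 5 genes with these windows were near 0 or low in untreated cells. Retnla, a secreted resistin-like protein, had 714 FPKM in IL-4 replicate 1 and 1317 to 1389.7 FPKM in the other 3 IL-4 libraries, against 1.06, 1.10, 1.17 and 2.26 FPKM in untreated libraries. Pdcd1lg2, the T cell inhibitory ligand PD-L2, had 23.2, 25.3, 18.4 and 18.7 FPKM with IL-4, against 0.475, 0.0780, 0.230 and 0.296 FPKM in untreated cells. Tmem26, a membrane protein, had 45.2, 34.2, 27.2 and 29.3 FPKM with IL-4, against 2.18, 1.90, 1.86 and 2.30 FPKM in untreated cells. In all 3 the lowest IL-4 library was far above the highest untreated one (log2 change 8.94, 4.14 and 3.49, adjusted p = 8.85e-08, 1.57e-07 and 1.12e-06). Apol7c, of the apolipoprotein L family, averaged 7.90 ± 1.26 FPKM with IL-4 and was at 0 in 3 of the 4 untreated libraries (log2 change 3.12, adjusted p = 1.83e-07). Plekhf1, an endosomal protein with a lipid-binding domain, averaged 4.84 ± 0.772 FPKM with IL-4 and 0.226 ± 0.0771 FPKM untreated (log2 change 2.24, adjusted p = 1.98e-06).

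The motif reads the same on both strands and was present in 483 of the 7649 tested genes with a window (6.31%). It was present in 6 of 27 genes that rose at least 4-fold (22.2%), 15 of 125 that rose at least 2-fold (12%) and 71 of 783 that rose (9.07%). Among genes that fell it was present in 60 of 1072 (5.60%), and in 4 of 64 that fell at least 2-fold (6.25%). The form with a spacer 1 base shorter, TTCNNNGAA, cannot share a TTC or a GAA with it but may otherwise overlap it. It was present in 8.22% of all tested genes with a window, 11.1% of those that rose at least 4-fold, 8.80% of those that rose at least 2-fold and 12.5% of those that fell at least 2-fold. These shares describe letters in a short window and not binding.

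Feedback inhibitors of the IL-4 receptor rose, and its chains moved in both directions. Socs1, which blocks Janus kinases, had 13.9, 17.3, 13.4 and 13 FPKM with IL-4, against 0.766, 0.777, 1.04 and 1.87 FPKM in untreated cells. The groups did not overlap, and the log2 change was 2.89 (SE 0.16, adjusted p = 5.75e-06). Socs2, of the same family, was low, at 1.61 ± 0.328 FPKM with IL-4 and 0.139 ± 0.0694 FPKM untreated (log2 change 1.19, adjusted p = 4.77e-05). Of the receptor chains, Il2rg rose to 31.5 ± 3.28 FPKM with IL-4, against 17.4 ± 2.67 FPKM in untreated cells (log2 change 0.83, adjusted p = 0.000919). Il13ra1 fell to 2.19 ± 0.378 FPKM with IL-4, against 4.71 ± 0.549 FPKM untreated (log2 change -0.84, adjusted p = 0.000459). Il4ra itself averaged 13.6 ± 0.836 FPKM with IL-4 and 15.8 ± 2.21 FPKM untreated, with overlapping groups (log2 change -0.20, adjusted p = 0.179). Without untreated replicate 1 Il4ra was called lower (log2 change -0.28, adjusted p = 0.0266). Stat6 averaged 55.6 ± 0.656 FPKM with IL-4 and 61.5 ± 3.14 FPKM untreated and just missed the threshold (log2 change -0.14, adjusted p = 0.0559), which it passed, as lower, without untreated replicate 2 (adjusted p = 0.0151), with quantile normalization (adjusted p = 0.0205) and with the spread shared over all 16 libraries (adjusted p = 0.0392). In all, 4 of 15 tested genes of the pathway rose and 2 fell (26.7% and 13.3%, against 10.4% and 14.3% over all tested genes). The other fall was that of Inpp5d, the lipid phosphatase SHIP1 (log2 change -0.38, adjusted p = 0.00214).

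Most transcription factors linked with alternative activation rose. Of 17 tested, 11 rose and 3 fell (64.7% and 17.6%, against 10.4% and 14.3% over all tested genes), with a median change of 0.86. This list, too, was drawn up for genes already linked with such cells, so its direction is no independent evidence. Members such as Irf4, under 1 FPKM in every untreated library, were tested only because of their IL-4 libraries. With only genes of a mean of at least 5, 6 of 11 rose and 3 fell. Irf4, a factor that acts with STAT6 in several immune cells, had 5.66, 5.72, 6.02 and 6.66 FPKM with IL-4, against 0.136, 0.150, 0.173 and 0.135 FPKM in untreated cells. All 4 untreated libraries were near 0, and the log2 change was 2.61 (SE 0.06, adjusted p = 6.35e-08). Batf3, a partner of Irf4 and also a factor of dendritic cells, averaged 9.24 ± 1.76 FPKM with IL-4 and 1.16 ± 0.543 FPKM untreated. Egr2, a zinc finger factor, averaged 56.9 ± 9.42 FPKM with IL-4 and 14.1 ± 0.907 FPKM untreated, and Klf4, a Kruppel-like factor, 6.81 ± 1.2 FPKM with IL-4 and 1.23 ± 0.337 FPKM untreated. Bhlhe40 averaged 36.9 ± 3.87 FPKM with IL-4 and 10.4 ± 1.32 FPKM untreated, while its close relative Bhlhe41 averaged 7.58 ± 0.587 FPKM with IL-4 and 13.9 ± 1.72 FPKM untreated, so that these 2 repressors moved in opposite directions (log2 change 1.73 and -0.79, adjusted p = 7.95e-06 and 0.000311). Pparg, the nuclear receptor of fatty acid metabolism, rose by 0.98 and Myc by 1.23 (adjusted p = 0.000129 and 0.000105). Rxra, the partner of Pparg, fell by 0.38, and Maf, a factor of resident macrophages, fell by 0.91 (adjusted p = 0.011 and 0.00199).

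Immediate early genes, which respond to growth factor and kinase signals, were split. Of 24 tested, 12 rose and 4 fell. Ier3 averaged 56.3 ± 7.31 FPKM with IL-4 and 12.3 ± 1.88 FPKM untreated (log2 change 2.11, adjusted p = 5.67e-06). Among the phosphatases that switch off MAP kinases, Dusp4 averaged 23.4 ± 5.54 FPKM with IL-4 and 5.30 ± 0.766 FPKM untreated, while Dusp1 averaged 13.2 ± 3.73 FPKM with IL-4 and 28.0 ± 6.88 FPKM untreated (log2 change 1.93 and -1.03, adjusted p = 5.15e-05 and 0.0049). Within the AP-1 family, Fosl2 rose by 1.06 and Fos fell by 0.90 (adjusted p = 6.6e-05 and 0.00116). Klf6 fell by 0.44 (adjusted p = 6.21e-05), the opposite direction to Klf4.

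**Figure D2:**
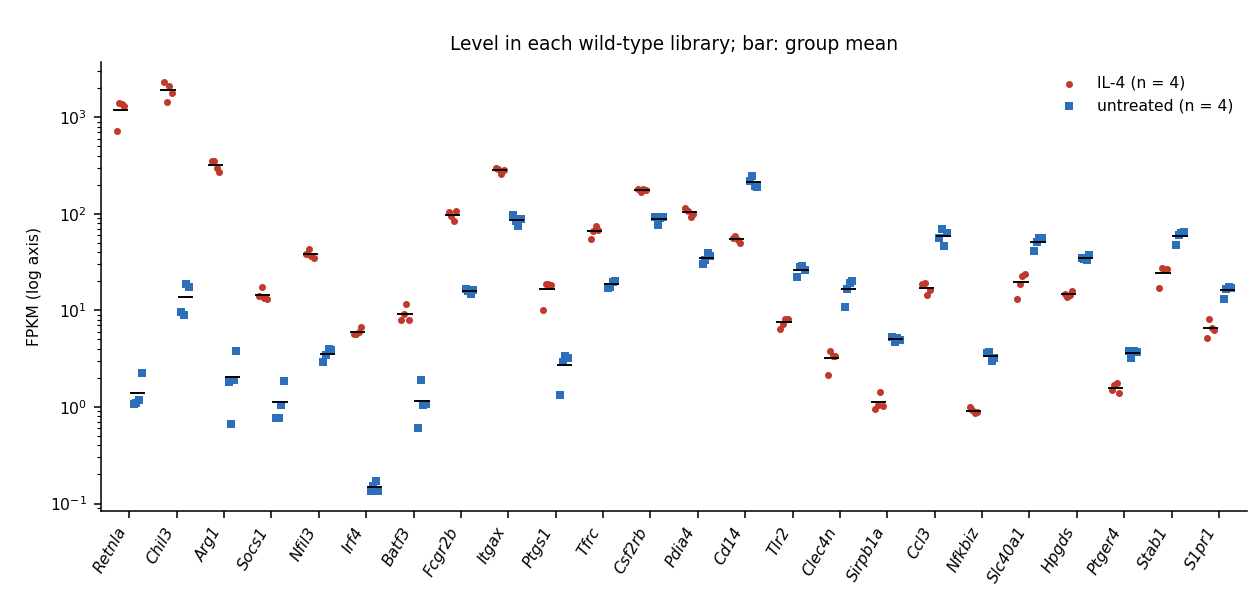
FPKM on a log axis in each wild-type library for 24 of the named genes. Red circles on the left of each gene are the 4 IL-4 libraries, blue squares on the right the 4 untreated libraries, and bars are group means. The groups are apart for each gene shown, from Retnla, 714 FPKM or more with IL-4, to Irf4, at 0.173 FPKM or less untreated.

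Some receptors for bacterial products were lower with IL-4. Cd14, which hands lipopolysaccharide to its receptor, had 56.7, 58.4, 53.2 and 49.7 FPKM with IL-4, against 218, 243, 194 and 189 FPKM in untreated cells (log2 change -1.93, SE 0.09, adjusted p = 1.98e-06). Tlr2, the receptor of bacterial lipoproteins, had 6.36, 7.29, 8.14 and 8.17 FPKM with IL-4, against 22.0, 27.8, 28.6 and 26.2 FPKM in untreated cells (log2 change -1.68, SE 0.10, adjusted p = 8.54e-06). For both, the highest IL-4 library lay below the lowest untreated one by a wide margin. Tlr13, a sensor of bacterial ribosomal RNA, averaged 74.4 ± 4.07 FPKM with IL-4 and 129.7 ± 7.57 FPKM untreated, while Tlr8, an endosomal RNA receptor, averaged 72.9 ± 5.51 FPKM with IL-4 and 46.4 ± 5.55 FPKM untreated and rose (log2 change -0.79 and 0.65, adjusted p = 2.42e-05 and 0.0011). Of 24 tested Toll-like receptors and adaptors, 7 fell (29.2%), 16 were not called and 1 rose (4.17%), against 14.3% and 10.4% over all tested genes. The 1 became 2 without IL-4 replicate 3 or with median-ratio scaling. Of 10 tested C-type lectin pattern receptors, 4 fell and 2 rose, the 2 becoming 1 without IL-4 replicate 2 or untreated replicate 4. Clec4n (Dectin-2) had 2.15, 3.80, 3.39 and 3.36 FPKM with IL-4, against 10.8, 16.6, 19.0 and 20.2 FPKM in untreated cells and Clec4d averaged 176 ± 15.5 FPKM with IL-4 and 519 ± 19.1 FPKM untreated (log2 change -2.06 and -1.56, adjusted p = 0.000115 and 1.56e-06). Their neighbour in the same gene family, Clec4a3, averaged 135 ± 18.2 FPKM with IL-4 and 42.8 ± 6.75 FPKM untreated and rose (log2 change 1.64, adjusted p = 4.45e-05). Reads of Clec4n may be shared with close relatives.

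Downstream of these receptors, subunits and regulators of NF-kB went in opposite directions. Rel and Nfkb1, which encode subunits, rose, averaging 10.2 ± 0.833 FPKM with IL-4 and 5.60 ± 0.30 FPKM untreated for Rel and 9.93 ± 0.579 FPKM with IL-4 and 6.73 ± 0.568 FPKM untreated for Nfkb1 (log2 change 0.76 and 0.50, adjusted p = 6.6e-05 and 0.000867). Nfkbiz, a nuclear co-regulator induced by Toll-like receptors, had 0.988, 0.923, 0.871 and 0.877 FPKM with IL-4, against 3.60, 3.74, 2.97 and 3.20 FPKM in untreated cells. Its groups were apart and its log2 change was -1.19 (adjusted p = 8.73e-06). Nfkbia, the inhibitor of NF-kB, fell by 0.52, and Nlrp3, the inflammasome sensor, fell by 1.0 (adjusted p = 0.00555 and 0.000131). In this list of 21 genes, 4 rose and 7 fell. Of 9 tested inflammatory cytokines and enzymes, 0 rose and 4 fell, namely Tnf (-1.37), Tnfsf9 (-0.70), Osm (-0.64) and Il18 (-0.47), with adjusted p between 0.000126 and 0.00754.

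Inflammatory chemokines divided evenly, with 4 of 13 tested genes higher and 4 lower. Ccl9 averaged 386 ± 40.8 FPKM with IL-4 and 115 ± 19.0 FPKM untreated, Ccl6 678 ± 101 FPKM with IL-4 and 322 ± 65.4 FPKM untreated and Ccl7 25.1 ± 2.77 FPKM with IL-4 and 8.03 ± 2.80 FPKM untreated, and Ccl2 averaged 17.3 ± 1.69 FPKM with IL-4 and 9.16 ± 2.10 FPKM untreated. Ccl9, Ccl6, Ccl7 and Ccl2 rose, by 1.75, 1.08, 1.58 and 0.87 on the log2 scale (adjusted p = 1.74e-05, 0.000902, 0.000674 and 0.0025). Ccl3, a ligand of Ccr1, had 18.6, 19.4, 14.4 and 16.4 FPKM with IL-4, against 55.7, 70.0, 46.4 and 63.0 FPKM in untreated cells. The groups were far apart, and Ccl3 and its neighbour Ccl4 fell by 1.71 and 1.69 (adjusted p = 3.54e-05 and 4.87e-05). Cxcl2, a neutrophil attractant, fell by 1.32 and Cxcl16 by 0.52 (adjusted p = 0.000429 and 0.00484). Among 7 tested receptors 1 rose and 3 fell. The 1 became 2 without IL-4 replicate 1. Ccr1 averaged 45.8 ± 8.63 FPKM with IL-4 and 21 ± 3.10 FPKM untreated (log2 change 1.08, adjusted p = 0.000976). Cxcr4, the receptor that holds cells in the marrow, averaged 52.6 ± 4.38 FPKM with IL-4 and 106 ± 12.1 FPKM untreated (log2 change -1.0, adjusted p = 7.07e-05). Cxcr3 was low and fell by 1.40 (adjusted p = 8.33e-05), and Ccr3, at -0.42 (adjusted p = 0.0165), was the third.

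Fc gamma receptors bind the constant part of IgG, and the inhibitory member rose most. Fcgr2b, the inhibitory receptor, had 103, 95.1, 85.0 and 106 FPKM with IL-4, against 16.8, 15.8, 14.8 and 16.3 FPKM in untreated cells. The groups were far apart (log2 change 2.53, SE 0.07, adjusted p = 1.27e-07). Of the activating receptors, Fcgr4 averaged 123 ± 11.2 FPKM with IL-4 and 86.6 ± 6.22 FPKM untreated and rose (log2 change 0.49, adjusted p = 0.00176). Fcgr1, the high-affinity receptor, averaged 21 ± 2.69 FPKM with IL-4 and 41.5 ± 5.39 FPKM untreated and fell (log2 change -0.95, adjusted p = 0.000399).

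Paired myeloid receptors, families of activating and inhibitory surface proteins that tune myeloid cells, were mostly lower. Of 25 tested gene identifiers, 17 fell and 3 rose, with a median change of -0.36. Sirpb1a, an activating relative of the phagocytosis checkpoint Sirpa, had 0.964, 1.05, 1.43 and 1.02 FPKM with IL-4, against 5.24, 4.74, 5.22 and 4.97 FPKM in untreated cells. All IL-4 libraries were below all untreated ones (log2 change -1.52, SE 0.08, adjusted p = 3.82e-06). Its relatives Sirpb1c and Sirpb1b fell as well (-1.40 and -1.23, adjusted p = 1.24e-05 and 3.83e-05), as did the activating Pilrb1 and Pilrb2 (-1.31 and -1.49, adjusted p = 0.000155 and 8.33e-05) and their inhibitory partner Pilra (-1.25, adjusted p = 0.000393). How reads were divided among the near-identical Sirpb1 genes, and between Pilrb1 and Pilrb2, is not given, so single values of these genes are uncertain. Clec12a, an inhibitory receptor for uric acid crystals, averaged 46.2 ± 2.12 FPKM with IL-4 and 94.5 ± 4.35 FPKM untreated (log2 change -1.02, adjusted p = 3.31e-06). Against this direction, Cd300ld and Cd300lb rose, at 506 ± 20.1 FPKM with IL-4 and 267 ± 14.5 FPKM untreated for Cd300ld and 225 ± 3.83 FPKM with IL-4 and 133 ± 8.01 FPKM untreated for Cd300lb (log2 change 0.92 and 0.76, adjusted p = 6.81e-06 and 1.48e-05).

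Receptors and bridging proteins for the uptake of dying cells and modified lipoproteins were largely lower. Of 19 tested, 10 fell (52.6%) and 2 rose (10.5%), with a median change of -0.31. Over all tested genes 14.3% fell and 10.4% rose. Cd5l, a secreted protein of tissue macrophages, averaged 81.6 ± 16.9 FPKM with IL-4 and 215 ± 48.6 FPKM untreated, and Stab1, a scavenger receptor, averaged 24.5 ± 4.89 FPKM with IL-4 and 58.7 ± 7.98 FPKM untreated (log2 change -1.38 and -1.24, adjusted p = 0.00134 and 0.000624). Gas6, the ligand that bridges dying cells to Mertk, averaged 50.2 ± 8.11 FPKM with IL-4 and 108 ± 14.3 FPKM untreated, and Mertk averaged 28.4 ± 3.02 FPKM with IL-4 and 43.4 ± 4.94 FPKM untreated (log2 change -1.10 and -0.59, adjusted p = 0.0005 and 0.00244). The 2 that rose were Cd36, a fatty acid and lipoprotein receptor, and the Mertk ligand Pros1 (log2 change 0.44 and 0.40, adjusted p = 0.00233 and 0.000392).

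Adhesion genes moved in both directions. Of 20 tested identifiers, 7 rose and 8 fell. Itgax (CD11c), an alpha chain that pairs with Itgb2, had 297, 288, 257 and 286 FPKM with IL-4, against 96.8, 83.4, 74.6 and 87.4 FPKM in untreated cells, and Itgb3, a beta chain, averaged 8.26 ± 0.830 FPKM with IL-4 and 1.90 ± 0.429 FPKM untreated. The groups did not overlap (log2 change 1.71 and 1.68, adjusted p = 2.34e-06 and 1.67e-05). Itgb2 rose by 0.43 (adjusted p = 0.000115), while Itgal, another alpha chain that pairs with it, fell to 10.0 ± 1.53 FPKM with IL-4, against 19.3 ± 2.58 FPKM untreated (log2 change -0.89, adjusted p = 0.000822). Itga4 and Itga6, which pair with Itgb1 among others, fell by 0.68 and 1.10 (adjusted p = 0.000109 and 7.56e-05), and Vcam1, a ligand of the Itga4 integrins, fell by 1.13 (adjusted p = 6.9e-05). Among 19 matrix proteins and extracellular proteases 6 rose and 4 fell (31.6% and 21.1%, against 10.4% and 14.3% over all tested genes). The collagenase Mmp13 averaged 31.4 ± 1.45 FPKM with IL-4 and 12.5 ± 1.65 FPKM untreated, while the membrane-bound protease Mmp14 averaged 1.45 ± 0.360 FPKM with IL-4 and 3.59 ± 0.358 FPKM untreated (log2 change 1.28 and -0.91, adjusted p = 1.56e-05 and 0.000502).

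**Figure D3:**
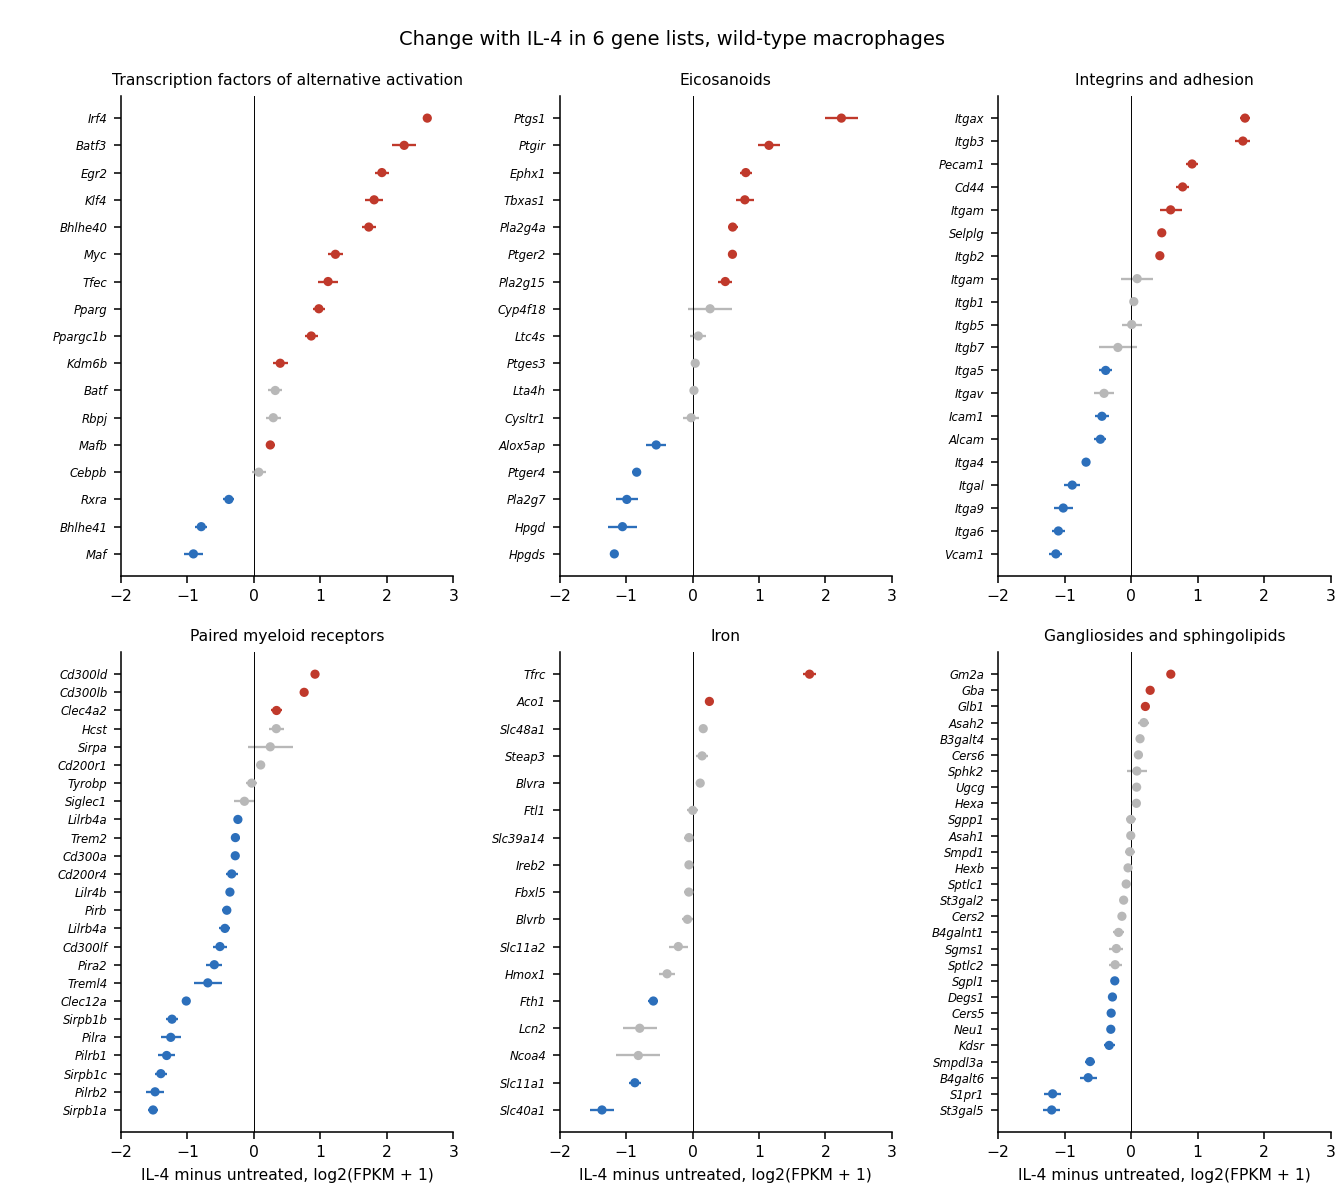
Change with IL-4, in log2(FPKM + 1), of every tested member of 6 gene lists in wild-type macrophages. Points are the fitted change and lines its standard error. Red members rose, blue members fell and grey members were not called. Symbols shown more than once have more than 1 gene identifier. Eicosanoid genes run from -1.18 (Hpgds) to 2.24 (Ptgs1) and paired receptors from -1.52 (Sirpb1a) to 0.92 (Cd300ld).

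Several receptors for growth factors and cytokines rose. Of 30 tested ligands and receptors, 10 rose and 6 fell. Csf2rb, the signalling chain shared by the receptors for GM-CSF and related cytokines, had 179, 169, 181 and 175 FPKM with IL-4, against 92.1, 75.7, 90.8 and 92.6 FPKM in untreated cells. The IL-4 libraries lay within a narrow band and all above the untreated ones (log2 change 1.00, SE 0.07, adjusted p = 1.74e-05). Il6st, the shared chain of the IL-6 family receptors, averaged 28.8 ± 9.09 FPKM with IL-4 and 11.3 ± 3.14 FPKM untreated, a wide spread (log2 change 1.25, adjusted p = 0.00846). Flt1, a VEGF receptor, was near 0 in untreated cells and averaged 3.03 ± 0.886 FPKM with IL-4 (log2 change 1.94, adjusted p = 2.39e-05). Among ligands, Igf1 and Hbegf rose, Igf1 to 134 ± 8.40 FPKM with IL-4, against 81.2 ± 6.88 FPKM untreated (log2 change 0.72 and 1.04, adjusted p = 0.000146 and 0.000144). Gdf15 and Pdgfb fell by 0.94 and 0.90 (adjusted p = 0.00196 and 1.57e-05). Of 12 nucleotide and related receptors 4 rose, among them the ADP receptor P2ry1 and the adenosine receptor Adora2b (log2 change 1.46 and 1.10, adjusted p = 7.32e-06 and 1.46e-05), and 1 fell.

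Eicosanoids are lipid mediators made from arachidonic acid, which phospholipase releases, cyclooxygenase converts, and end enzymes turn into prostaglandins or thromboxane. Of 17 tested genes 7 rose and 5 fell. Ptgs1, the constitutive cyclooxygenase, had 9.97, 18.9, 18.8 and 18.1 FPKM with IL-4, against 1.32, 2.90, 3.36 and 3.21 FPKM in untreated cells. Replicate 1 was lowest in both groups, and the groups did not overlap (log2 change 2.24, SE 0.25, adjusted p = 0.000286). The phospholipase Pla2g4a and the thromboxane synthase Tbxas1 also rose, averaging 3.67 ± 0.260 FPKM with IL-4 and 2.07 ± 0.227 FPKM untreated for Pla2g4a and 35.4 ± 5.24 FPKM with IL-4 and 20.1 ± 3.27 FPKM untreated for Tbxas1 (log2 change 0.60 and 0.79, adjusted p = 0.000484 and 0.003). Hpgds, which makes prostaglandin D2, had 14.9, 13.8, 14.5 and 15.9 FPKM with IL-4, against 34.5, 33.7, 33.0 and 37.3 FPKM in untreated cells and fell (log2 change -1.18, SE 0.06, adjusted p = 2.83e-06). Hpgd, which inactivates prostaglandins, fell to 7.70 ± 2.57 FPKM with IL-4, against 16.8 ± 3.52 FPKM untreated (log2 change -1.05, adjusted p = 0.00734). Receptors were split, with the prostaglandin E2 receptor Ptger2 and the prostacyclin receptor Ptgir higher (log2 change 0.60 and 1.15, adjusted p = 0.000147 and 0.00124). The other prostaglandin E2 receptor, Ptger4, was lower, at 1.59 ± 0.169 FPKM with IL-4 and 3.63 ± 0.255 FPKM untreated (log2 change -0.84, adjusted p = 5.2e-05).

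Most iron genes were not called, and 2 of 17 rose and 3 fell (11.8% and 17.6%, against 10.4% and 14.3% over all tested genes). Tfrc, the transferrin receptor that brings iron into cells, had 54.8, 65.7, 74.8 and 68.0 FPKM with IL-4, against 17, 17.5, 19.8 and 20.2 FPKM in untreated cells. The IL-4 libraries were all above the untreated ones (log2 change 1.76, SE 0.10, adjusted p = 5.7e-06). Slc40a1, ferroportin, the exporter of iron from cells, had 13.1, 18.6, 22.8 and 23.6 FPKM with IL-4, against 40.9, 50.6, 55.7 and 56.6 FPKM in untreated cells and fell (log2 change -1.36, SE 0.18, adjusted p = 0.000732). Slc11a1, which moves metal ions out of phagosomes, averaged 65.5 ± 5.92 FPKM with IL-4 and 121 ± 12.6 FPKM untreated (log2 change -0.87, adjusted p = 0.000168). Of the ferritin chains, Fth1 averaged 9747 ± 827 FPKM with IL-4 and 14642 ± 715 FPKM untreated (log2 change -0.59, adjusted p = 0.000628), and Ftl1 averaged 3149 ± 311 FPKM with IL-4 and 3136 ± 211 FPKM untreated (log2 change 0.00, adjusted p = 0.984). Fth1 was among the highest genes in every library, and quantile normalization, which sets the top ranks equal, gave it a change of 0.00 (adjusted p = 1). The 3 falls became 6 without untreated replicate 1 and 5 with the spread shared over all 16 libraries, and the 2 rises became 4 with median-ratio scaling. Hmox1, the heme-degrading enzyme, missed the threshold (log2 change -0.38, adjusted p = 0.0511). It was called lower without untreated replicate 1 (log2 change -0.47, adjusted p = 0.0186) and with quantile normalization (log2 change -0.55, adjusted p = 0.00814). So it was with only genes of a mean of at least 5 (adjusted p = 0.0479) and with the spread shared over all 16 libraries (adjusted p = 0.0182).

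Genes of sphingolipid metabolism and sterol efflux were more often lower than higher. Of 28 sphingolipid and ganglioside genes 9 fell and 3 rose. St3gal5, which makes the ganglioside GM3, averaged 9.89 ± 0.935 FPKM with IL-4 and 24.2 ± 4.42 FPKM untreated, and S1pr1, a receptor of sphingosine 1-phosphate, averaged 6.55 ± 1.23 FPKM with IL-4 and 16.1 ± 2.08 FPKM untreated (log2 change -1.20 and -1.18, adjusted p = 0.000201 and 0.000266). B4galt6, a lactosylceramide synthase, and Smpdl3a, a phosphodiesterase, fell by 0.65 and 0.62 (adjusted p = 0.00686 and 0.000588). Gm2a, the activator protein for ganglioside breakdown, rose by 0.60 (adjusted p = 0.000166). Of 14 genes of cholesterol efflux and LXR, the sterol-sensing receptor, 6 fell and 1 rose. Apoe averaged 1567 ± 377 FPKM with IL-4 and 2565 ± 367 FPKM untreated and the efflux pump Abca1 24.1 ± 1.49 FPKM with IL-4 and 35.7 ± 6.57 FPKM untreated (log2 change -0.73 and -0.53, adjusted p = 0.0158 and 0.0105), while the pump Abcg1 rose by 0.63 (adjusted p = 0.0057).

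Of 21 tested glycolysis genes, 8 rose and 4 fell. The 4 became 2 without IL-4 replicate 4 or untreated replicate 2 or 4 and with median-ratio scaling, and the 8 became 5 with quantile normalization. Ldha, a lactate dehydrogenase chain, had 233, 234, 245 and 233 FPKM with IL-4, against 146, 155, 157 and 154 FPKM in untreated cells. The groups were apart (log2 change 0.62, SE 0.04, adjusted p = 1.46e-05). Slc2a6, of the glucose transporter family, averaged 5.07 ± 0.377 FPKM with IL-4 and 1.72 ± 0.207 FPKM untreated (log2 change 1.16, adjusted p = 1.31e-05). The phosphofructokinase isoforms diverged, with the platelet form Pfkp higher and the liver form Pfkl lower (log2 change 0.56 and -0.48, adjusted p = 0.000144 and 0.000573). Among 26 genes of fatty acid synthesis, binding and storage, 3 rose and 5 fell (11.5% and 19.2%), shares near those over all tested genes, 10.4% and 14.3%. The 5 became 3 without IL-4 replicate 4 or untreated replicate 2 or 3 and 2 without untreated replicate 4. The desaturase Scd2 averaged 10.6 ± 1.19 FPKM with IL-4 and 3.99 ± 0.610 FPKM untreated, while Plin2, a coat protein of lipid droplets, averaged 382 ± 14 FPKM with IL-4 and 529.7 ± 46.4 FPKM untreated (log2 change 1.22 and -0.47, adjusted p = 6.22e-05 and 0.0011). Of 18 hypoxia response genes, 5 fell, among them Egln1, a prolyl hydroxylase that senses oxygen, and P4ha2, a prolyl hydroxylase of collagen (log2 change -0.34 and -0.76, adjusted p = 0.00116 and 0.000393). A further 2 rose (11.1%, near the 10.4% over all tested genes), and these were 0 with quantile normalization, without IL-4 replicate 1 or untreated replicate 1 or 2, and 1 without IL-4 replicate 3 or 4 or untreated replicate 3 or 4.

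Some lysosomal and cytoskeletal genes also changed. Over all tested genes 10.4% rose and 14.3% fell. Of 17 subunits of the vacuolar proton pump, which acidifies lysosomes, 3 rose (17.6%) and 1 fell (5.88%). The 1 became 2 without IL-4 replicate 1 and 5 with quantile normalization, and the 3 became 6 with median-ratio scaling. Atp6v0a1 had 92.1, 78.1, 69.6 and 73.8 FPKM with IL-4, against 39.8, 31.8, 34.4 and 36 FPKM in untreated cells. The groups did not overlap, and Atp6v0d2, a subunit also known from osteoclasts, rose as well (log2 change 1.12 and 0.71, adjusted p = 5.98e-05 and 0.000486). Of 39 lysosomal hydrolases 9 rose (23.1%) and 8 fell (20.5%). The 8 became 5 without IL-4 replicate 2, 3 or 4 and 4 without untreated replicate 3 or 4 or with median-ratio scaling. With quantile normalization 5 hydrolases rose and 11 fell. The cathepsin Ctsz averaged 1205 ± 15.5 FPKM with IL-4 and 908 ± 23.2 FPKM untreated, and Sgsh, which degrades heparan sulfate, averaged 9.75 ± 0.411 FPKM with IL-4 and 17.2 ± 0.942 FPKM untreated (log2 change 0.41 and -0.76, adjusted p = 0.000129 and 2.39e-05). Sgsh was not called when the spread was shared over all 16 libraries (adjusted p = 0.077). Of 38 genes of the actin and tubulin cytoskeleton and its regulators, 11 rose (28.9%) and 6 fell (15.8%), or 11 fell with quantile normalization. Arhgap19, a GTPase-activating protein, had 0.703, 4.41, 0.752 and 22.3 FPKM with IL-4, against 29.5, 41.9, 43.8 and 42.4 FPKM in untreated cells. It held the largest fall among the named genes (log2 change -3.18, SE 0.74, adjusted p = 0.0137). Its IL-4 libraries varied widely, and without replicate 4, the highest of them, the log2 change was -3.98 (adjusted p = 0.000419). Marcksl1, which binds actin and membranes, averaged 5.12 ± 1.63 FPKM with IL-4 and 17.5 ± 4.31 FPKM untreated, and Capg, which caps actin filaments, averaged 459 ± 9.98 FPKM with IL-4 and 348 ± 21.4 FPKM untreated (log2 change -1.60 and 0.40, adjusted p = 0.000826 and 0.000658).

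Of 34 tested chaperone and unfolded protein response genes of the endoplasmic reticulum, 19 rose and 1 fell, with a median change of 0.24. The 1 was not called without IL-4 replicate 2, 3 or 4 or untreated replicate 1, 3 or 4. Pdia4, a protein disulfide isomerase, had 114, 108, 93.6 and 98.9 FPKM with IL-4, against 30.1, 32.8, 39.6 and 36.3 FPKM in untreated cells. The groups were apart (log2 change 1.55, SE 0.09, adjusted p = 8.54e-06). Sdf2l1, Creld2 and Manf, cofactors and secreted proteins of the same compartment, rose by 0.78, 0.80 and 0.68 (adjusted p = 1.24e-05, 5.5e-05 and 0.00214), and the chaperone Hsp90b1 by 0.55 (adjusted p = 0.000142). Hspa5 (BiP), the main chaperone, was uneven, at 215, 95.7, 90.5 and 156 FPKM with IL-4, against 133, 69.7, 66.8 and 109 FPKM in untreated cells. Its groups overlapped and it did not pass the test, with replicate 1 highest in both groups (log2 change 0.52, adjusted p = 0.276). With a replicate block, which matches libraries by number, limma called it higher (adjusted p = 0.00125). The labels do not say that these numbers mark shared animals. All 8 tested MHC class II genes rose, with a median change of 1.39, and so did 11 of 17 class I genes, with 0 lower and a median of 0.33. Psmb10, a subunit of the immunoproteasome that cuts peptides for class I, averaged 77.0 ± 9.30 FPKM with IL-4 and 36.6 ± 1.78 FPKM untreated (log2 change 1.05, adjusted p = 4.27e-05). The inhibitory ligand Cd274 (PD-L1) averaged 61.1 ± 5.48 FPKM with IL-4 and 17.1 ± 1.56 FPKM untreated (log2 change 1.78, adjusted p = 1.98e-06), and Cd83 rose by 1.16 (adjusted p = 0.00138).

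Several gene groups held few or no calls. Of 38 genes of DNA replication and cell division, 1 rose, the cell cycle inhibitor Cdkn1a (log2 change 0.66, adjusted p = 0.00348), and 1 fell. The count of 1 lower became 4 without IL-4 replicate 1 and 0 without any of the others but IL-4 replicate 2. Of 27 type I interferon-stimulated genes, 1 rose, the nucleic acid sensor Zbp1 (log2 change 1.03, adjusted p = 9.27e-05), and 1 fell, the RNA sensor Oas2 (log2 change -0.80, adjusted p = 0.00859). The 1 lower became 2 without IL-4 replicate 1 and 3 without IL-4 replicate 4 or untreated replicate 1. By limma 0 of 13 mitochondrially encoded mRNAs were called. In contrast, 22 of 39 nuclear genes of respiratory complexes III to V rose (56.4%, against 10.4% over all tested genes). This became 13 without IL-4 replicate 2 or untreated replicate 3 or 4 and 12 with quantile normalization. Of 45 nuclear genes of complex I, fewer rose, namely 8 (17.8%). Those 8 became 4 without IL-4 replicate 2 or 3, 3 without untreated replicate 4 and 13 with median-ratio scaling. Of 26 TCA cycle genes 11 rose (42.3%) and 0 fell. Of 81 cytosolic ribosomal protein genes 15 rose (18.5%, against 10.4% over all tested genes). That count ran from 5 without IL-4 replicate 2 to 33 without untreated replicate 2. It was 7 and 9 without IL-4 replicates 3 and 4, and 8, 6 and 6 without untreated replicates 1, 3 and 4. With quantile normalization 2 rose and with median-ratio scaling 25.

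**Figure D4:**
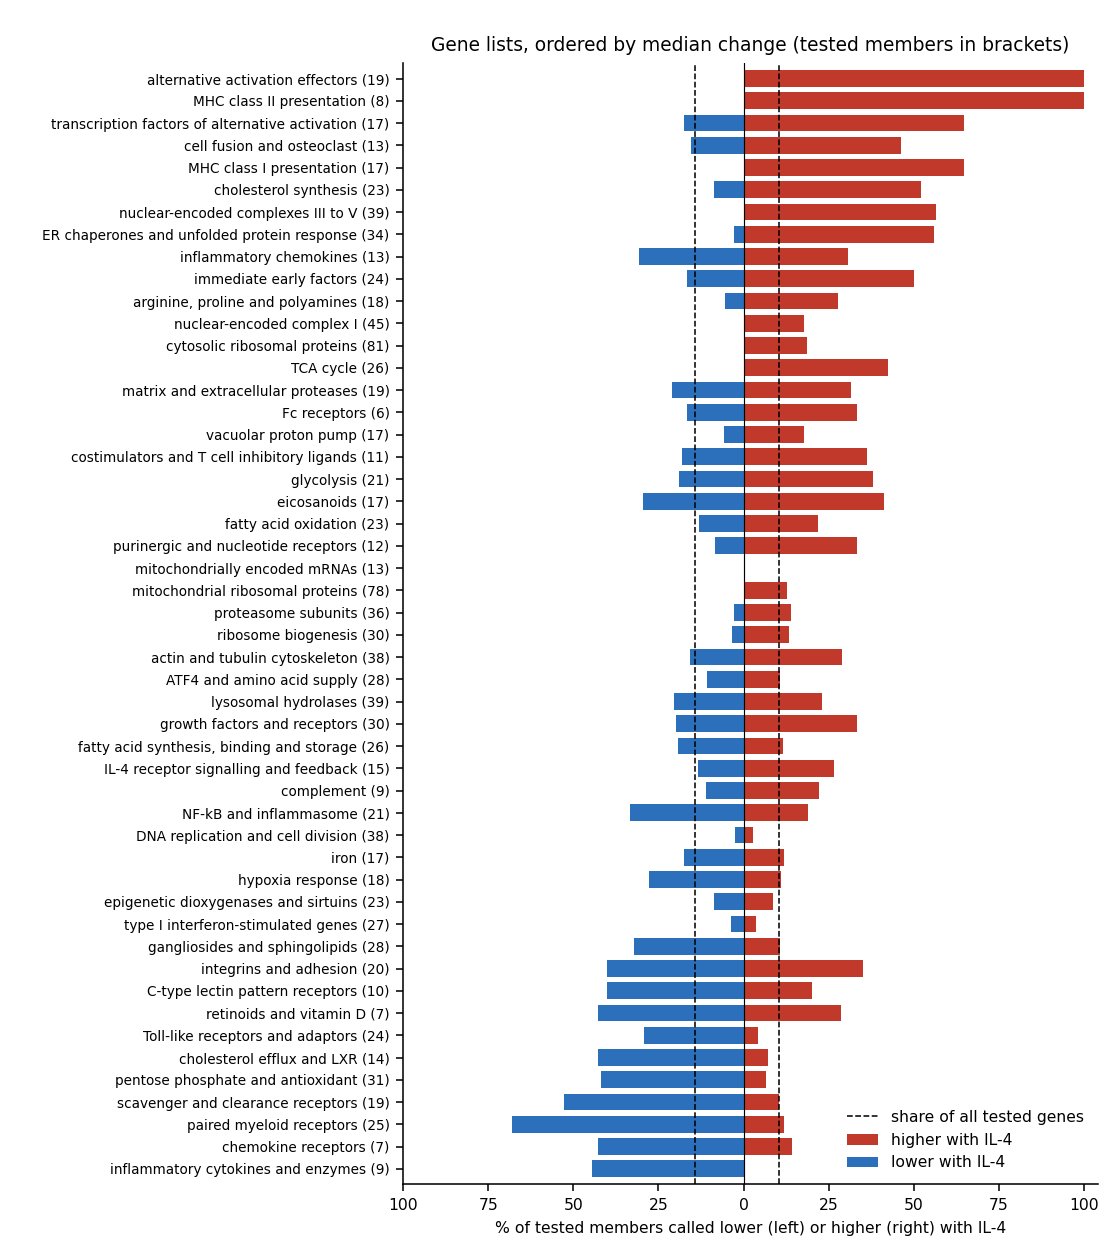
Share of tested members called lower (blue, to the left) or higher (red, to the right) with IL-4 for 50 gene lists in wild-type macrophages, with the number of tested members in brackets. Dashed lines mark the share over all tested genes, 14.3% lower and 10.4% higher. Lists are ordered by median change, from alternative activation effectors (19 of 19 higher) to inflammatory cytokines and enzymes (4 of 9 lower).

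Some genes were found on one side alone. At a level of 1 FPKM, 52 genes lay under it in all 4 untreated libraries and at or over it in all 4 IL-4 libraries, and 46 genes showed the reverse. The 52 genes were tested only because of their IL-4 libraries, and the 46 only because of their untreated libraries. The direction of both sets was thus fixed by the rule and is a description. Among them were Irf4, Lipn, Pdcd1lg2, Plekhf1 and Apol7c, described above, and Ocstamp, a protein of cell fusion, at 8.18, 7.01, 7.68 and 6.84 FPKM with IL-4, against 0.0650, 0.0616, 0 and 0.0654 FPKM in untreated cells. Of the 46 genes, 43 were called, a count to which the same limit applies. Nfkbiz, Cxcr3, Tnfsf9 and P4ha2, described above, are among the 46. Fpr2, a receptor of formylated peptides, had 0.363, 0.526, 0.533 and 0.721 FPKM with IL-4, against 2.84, 3.07, 3.25 and 3.57 FPKM in untreated cells. Adgb, a globin-like protein gene, averaged 0.262 ± 0.117 FPKM with IL-4 and 1.97 ± 0.420 FPKM untreated (log2 change -1.45 for Fpr2 and -1.23 for Adgb).

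The response of wild-type cells was compared with that of Sirt3 K223R cells, gene by gene, as the difference of the 2 log2 changes. Of 9657 genes, 202 (2.09%) were called by limma, 133 (1.38%) with the wild-type response above and 69 (0.715%) with it below. Of the 2386 genes called in wild type, 111 were among the 202. With median-ratio scaling the split was 92 above and 123 below. The count depended on single libraries. It rose to 329 without Sirt3 K223R IL-4 replicate 2. It was 91, 106 and 129 without Sirt3 K223R untreated replicate 2, IL-4 replicate 3 and untreated replicate 3, and 117, 119 and 120 without wild-type untreated replicate 3, IL-4 replicate 3 and IL-4 replicate 4.

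Among the 10 genes named, the differences of Il11ra2, Mapk1ip1, Chil4 and Fn1 held under every alternative that tested them. The filter on a mean of at least 5 left out Il11ra2, Chil4 and Fn1, so only Mapk1ip1 was tested in all. Fn1, fibronectin, an adhesive matrix protein, had 5.72, 8.69, 12.8 and 9.84 FPKM with IL-4, against 0.527, 0.417, 0.735 and 0.506 FPKM in untreated cells in wild type, and averaged 54.3 ± 18.5 FPKM with IL-4 and 0.793 ± 0.244 FPKM untreated in Sirt3 K223R cells. Its log2 response was 2.69 for wild-type cells and 4.89 for Sirt3 K223R cells, a difference of -2.20 (SE 0.32, adjusted p = 0.00555). Mapk1ip1, a small protein that binds a MAP kinase, averaged 8.17 ± 0.501 FPKM with IL-4 and 9.08 ± 2.76 FPKM untreated in wild type, and 3.40 ± 0.730 FPKM with IL-4 and 9.61 ± 0.623 FPKM untreated in Sirt3 K223R cells (difference 1.19, SE 0.24, adjusted p = 0.0225). Untreated wild-type replicate 2 was at 5.05 FPKM, and the other untreated wild-type libraries at 9.74 to 11.2 FPKM. Without that library limma called Mapk1ip1 lower with IL-4 in wild type (log2 change -0.32, adjusted p = 0.0143). Il11ra2, a duplicate of the IL-11 receptor gene, had 3.75, 4.74, 3.65 and 3.72 FPKM with IL-4, against 0, 0.227, 2.19 and 0 FPKM in untreated cells in wild type. In Sirt3 K223R cells it had 0, 0, 0.295 and 0.512 FPKM with IL-4, against 2.06, 0.249, 1.60 and 1.84 FPKM in untreated cells. These levels were low, and the log2 response was 1.81 for wild-type cells and -0.963 for Sirt3 K223R cells (difference 2.78, SE 0.47, adjusted p = 0.00923). Chil4, a chitinase-like gene next to the near-identical Chil3, averaged 2.63 ± 0.438 FPKM with IL-4 in wild type and 16.7 ± 4.29 FPKM in Sirt3 K223R cells, and was near 0 untreated in both (difference -2.27, SE 0.17, adjusted p = 9.86e-06). Reads of Il11ra2, Chil3 and Chil4 may be shared with their copies. The files of the 2 genotypes differ in their columns, so a difference in processing and genotype cannot be told apart.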

How the data were processed

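Per the labels' protocols, Trizol RNA was either selected for poly(A) or depleted of ribosomal RNA before stranded, paired-end sequencing. The authors deposited 1 value per gene and library, taken here as FPKM, since the file headers name no unit and the values are not whole numbers. All 9510 gene identifiers that GENCODE M21 (GRCm38) holds have the same coordinates in the deposited files. Not given in the sources used here: which aligner, counter and strand setting were applied. A blank line (1 per file) was left out, and no libraries were merged.

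Values were set to log2(FPKM + 1). A linear model was fitted to the 8 wild-type libraries by limma 3.58.1 (R 4.3.3), using moderated variances with a trend on level, with Benjamini-Hochberg adjustment across 9657 genes. The difference of the responses came from a fit on all 16 libraries over the same genes. The script was tested on simulated data. Tables were made with Python 3.11.15 and pandas 2.3.3. Alternatives were other pseudocounts, filters, scalings and variance settings, a replicate block, a fit on all 16 libraries and leaving out each library. The members and gene lists were chosen with earlier results of these data known, as 50 pathway and 12 marker lists. A rule named 197 genes: the 25 largest changes in each direction with non-overlapping groups, up to 3 called members of each list by adjusted p (or the 2 highest where none was called), up to 10 genes found in a single group in each direction, and the 5 largest differences of response in each direction. A further 56 were chosen after their values were seen, among them Ptgs1, Stat6, Hspa5, Csf1r and Cd74, and so were the other members named beyond these counts. Models lacking a proper gene symbol enter the counts only, and some other members are not reported here by name. Reads of near-identical or overlapping genes may have been divided in ways not given.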

Additional observations from a re-analysis of the deposited data

Results flagged for a closer look

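Among the named genes, 506 groups of 4 libraries were checked for a library far from the other 3, by the gap to its nearest neighbour over the range of the group, and 34 were marked. Chance marks about 1 in 20 groups. Replicate 1 held 8 of the marks with IL-4 and 7 untreated, and IL-4 replicate 4 held 0. In IL-4 wild-type replicate 1 they were Dusp1 at 18.8 FPKM (others 11.0 to 11.6), Gbp2 at 8.25 FPKM (others 12.3 to 12.5), Maf at 20.4 FPKM (others 28.7 to 29.7) and Mapk1ip1 at 7.43 FPKM (others 8.36 to 8.47). The same library was marked for Ptgs1 at 9.97 FPKM (others 18.1 to 18.9), Retnla at 714 FPKM (others 1317 to 1389.7), Stab1 at 17.2 FPKM (others 26.7 to 27.5) and mt-Co2 at 2543 FPKM (others 2931 to 2998). In IL-4 wild-type replicate 2 they were Il11ra2 at 4.74 FPKM (others 3.65 to 3.75), Il4i1 at 15.2 FPKM (others 11.3 to 11.3) and Slc11a1 at 56.7 FPKM (others 67.6 to 69.4). In IL-4 wild-type replicate 3 they were Chil4 at 3.28 FPKM (others 2.36 to 2.45), Hadha at 22.3 FPKM (others 23.5 to 23.7) and Ldha at 245 FPKM (others 233 to 234). In untreated wild-type replicate 1 they were Arhgap19 at 29.5 FPKM (others 41.9 to 43.8), Cd68 at 1345 FPKM (others 1249.8 to 1259), Cdkn1a at 71.5 FPKM (others 94.9 to 98.5) and Dusp1 at 38.3 FPKM (others 23.4 to 25.7). The same library was marked for Gatm at 9.44 FPKM (others 13.6 to 13.9), Hsp90b1 at 157 FPKM (others 172 to 173) and S1pr1 at 13 FPKM (others 16.8 to 17.4). In untreated wild-type replicate 2 they were Csf2rb at 75.7 FPKM (others 90.8 to 92.6), Fcgr4 at 95.9 FPKM (others 82.7 to 83.9), Fos at 22.6 FPKM (others 26.0 to 26.5) and Limd2 at 25.2 FPKM (others 13.5 to 15.1). The same library was marked for Ptger4 at 3.25 FPKM (others 3.72 to 3.78) and Tpp1 at 70.3 FPKM (others 71.3 to 71.4). In untreated wild-type replicate 3 they were Camp at 5.19 FPKM (others 2.97 to 3.20), Idh3a at 5.41 FPKM (others 6.28 to 6.38), Il11ra2 at 2.19 FPKM (others 0 to 0.227) and Mrps25 at 4.0 FPKM (others 4.45 to 4.53). In untreated wild-type replicate 4 they were Gbp2 at 6.98 FPKM (others 3.88 to 3.94), Pram1 at 3.07 FPKM (others 1.99 to 2.04) and Retnla at 2.26 FPKM (others 1.06 to 1.17).

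Of the 202 called differences of response, wild type minus Sirt3 K223R, the 5 largest in each direction are given. On the log2 scale it was 2.78 for Il11ra2, 1.61 for Fabp7, 1.38 for Tmeff1, 1.21 for Plau and 1.19 for Mapk1ip1. It was -2.27 for Chil4, -2.20 for Fn1, -1.57 for Ear2, -1.38 for Chil3 and -1.37 for Gbp2. Those of Fabp7, Tmeff1, Plau, Ear2, Chil3 and Gbp2 lost their call when single libraries were left out (adjusted p up to 0.0809 for Fabp7, Tmeff1 and Gbp2, 0.0628 for Plau, 0.0589 for Ear2 and 0.103 for Chil3). Quantile normalization, too, ended the call of Chil3 (adjusted p = 0.126), as did both other pseudocounts and fits without a filter on low values or a variance trend, and quantile normalization ended that of Tmeff1 (adjusted p = 0.0575). Fabp7, a fatty acid binding protein, averaged 34.3 ± 14.7 FPKM with IL-4 and 58.0 ± 9.67 FPKM untreated in wild type, and 11.2 ± 4.85 FPKM with IL-4 and 61.4 ± 6.23 FPKM untreated in Sirt3 K223R cells (SD, n = 4 each). Gbp2, a GTPase of the interferon response, averaged 11.3 ± 2.06 FPKM with IL-4 and 4.68 ± 1.53 FPKM untreated in wild type, and 33.5 ± 11.0 FPKM with IL-4 and 4.81 ± 0.572 FPKM untreated in Sirt3 K223R cells.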

How the results depend on the processing

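Over 17 alternatives, 231 of 253 named genes kept their direction and their side of the threshold in the wild-type response wherever they were tested. Low genes, such as Irf4 and Socs2, were not tested with the filter on a mean of at least 5. Counts of all calls ranged from 1824 to 2264 when a library was left out, against 2386. With only genes of a mean of at least 5, which tests fewer genes, 923 fell, 47 of them by at least 2-fold. A pseudocount of 0.1 gave 145 falls of at least 2-fold, against 77. The labels do not say that a replicate number marks shared animals or batches. Same-numbered IL-4 and untreated libraries had correlations of their deviations of 0.305, 0.126, 0.0958 and 0.129, not all above 0.1, so no pairing was assumed. Each library correlated best with its own number, and libraries of different numbers reached at most 0.0499. This is a hint of pairing from the data and not from the design. The p-values of the main fit leave out any such pairing. A replicate block gave 2627 calls in wild type and 297 differences of response, 109 of them below. With it 6 neutrophil markers fell, and Hspa5, Pf4, Plau, Stat6 and Hmox1 gained calls (adjusted p = 0.00125, 0.00613, 0.0299, 0.0494 and 0.011). For the differences of response, leaving out a library gave 91 to 329 calls, 58 to 204 above and 33 to 125 below, and median-ratio scaling gave 123 below. Quantile normalization gave Fth1 and Lyz2, which hold the top ranks, a change of 0.00. The causes of the other shifts were not tested. Depth is unknown, so how far it limits low genes cannot be given.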
